A study of Homo sapiens with 4 samples.

Results

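The 30 genes described here make cholesterol and fatty acids or control that synthesis, and were taken by gene symbol from a table of 60544 genes measured in PC3, a long-established line of human prostate cancer cells. They fall into 17 enzymes of sterol synthesis, 5 genes of the sterol-sensing system and its response, and 8 enzymes of fatty acid synthesis and desaturation. Poly(A) RNA was sequenced from 2 libraries of cells labelled shNC, the control hairpin, and 2 libraries of cells labelled sh812. The series sets METTL3 knockdown against control, and sh812, the only other label, was read as the knockdown. METTL3 is the catalytic subunit of the enzyme that writes N6-methyladenosine on messenger RNA. All cells grew in the same medium with fetal bovine serum, which carries lipoproteins. Hairpin sequences, the length of knockdown and whether a line is 1 clone are not given in the sources used here. Nor do the labels say that libraries came from separate cultures, so p-values measure only the spread between these libraries, which may be technical.

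Library totals ran from 31450648 to 37041330 counts. METTL3 stood at 44.3 and 43.6 CPM (counts scaled to library size) under shNC and at 7.66 and 8.75 CPM under sh812, or 18.7% of control (log2 fold change -2.42, adjusted p = 5.54e-14 in edgeR). The epithelial keratin genes KRT8, KRT18 and KRT19 were abundant in every library, at 139 CPM or more, whereas the prostate secretory genes KLK2 and KLK3 had 0 counts in all 4. Markers of blood, vessel, stromal, fat and liver cells summed to 70.6 and 72.5 CPM in shNC and to 68.7 and 81.9 CPM in sh812, mostly from PECAM1 and COL1A1. Of the 8 tested markers on that list of 15, 1 was called higher and 1 lower (25%, beside 10.8% of all genes tested). Most were scarce, with a median shNC level of 2.00 CPM against 15.9 CPM over all genes tested. The median standard error of their log2 fold changes was 0.41 against 0.12, so real changes in them are easily missed. PECAM1, an endothelial gene, rose from 23.8 and 23.7 to 32.9 and 38.5 CPM (log2 fold change 0.59, adjusted p = 0.000222), and COL3A1, a fibroblast collagen, fell from 2.93 and 3.95 to 1.28 and 1.12 CPM (log2 fold change -1.51, adjusted p = 0.00131). CD3E and ADIPOQ had 0 counts in every library. The part of such markers in the results below was not tested.

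Cells make cholesterol from acetyl-CoA through mevalonate, farnesyl diphosphate, squalene and lanosterol, and make fatty acids from the same precursor through malonyl-CoA. Both programs are driven by the sterol regulatory element-binding proteins (SREBPs), membrane-bound transcription factors that SCAP carries to the Golgi for cleavage when sterol is scarce, and that INSIG proteins hold back when it is plentiful. SREBF2 encodes the factor known chiefly for sterol genes and SREBF1 the one known chiefly for fatty acid genes. Prostate tumors are known for high lipid synthesis, with fatty acid synthase as its best-known mark.

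Differences in this program were mostly small. Of the 30 genes, all of which passed the low-count filter, 1 was higher and 2 were lower in sh812 when a call was set at 0.05 for the adjusted p of the edgeR quasi-likelihood fit. NSDHL rose, and PMVK and SREBF2 fell. That is 10% of the set, beside 10.8% of all 16802 genes tested (1822 genes, 5.43% higher and 5.42% lower), so the share called was near that of the table as a whole. The median log2 fold change was -0.050 over the 30 genes and -0.0056 over all genes tested. Its size, without sign, had a median of 0.088 against 0.17, in genes with a median shNC level of 57.4 CPM against 15.9 CPM and a median standard error (SE) of 0.079 against 0.12. In 28 of the 30 genes the 95% interval of the fold change lay within 1.5-fold in both directions, as it did in 60.6% of all genes tested. The values of the groups did not overlap in 20 of the 30 genes, with sh812 above in 8 and below in 12. Over all genes tested this held for 53.6%, with 26.2% above and 27.4% below.

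**Figure D1:**
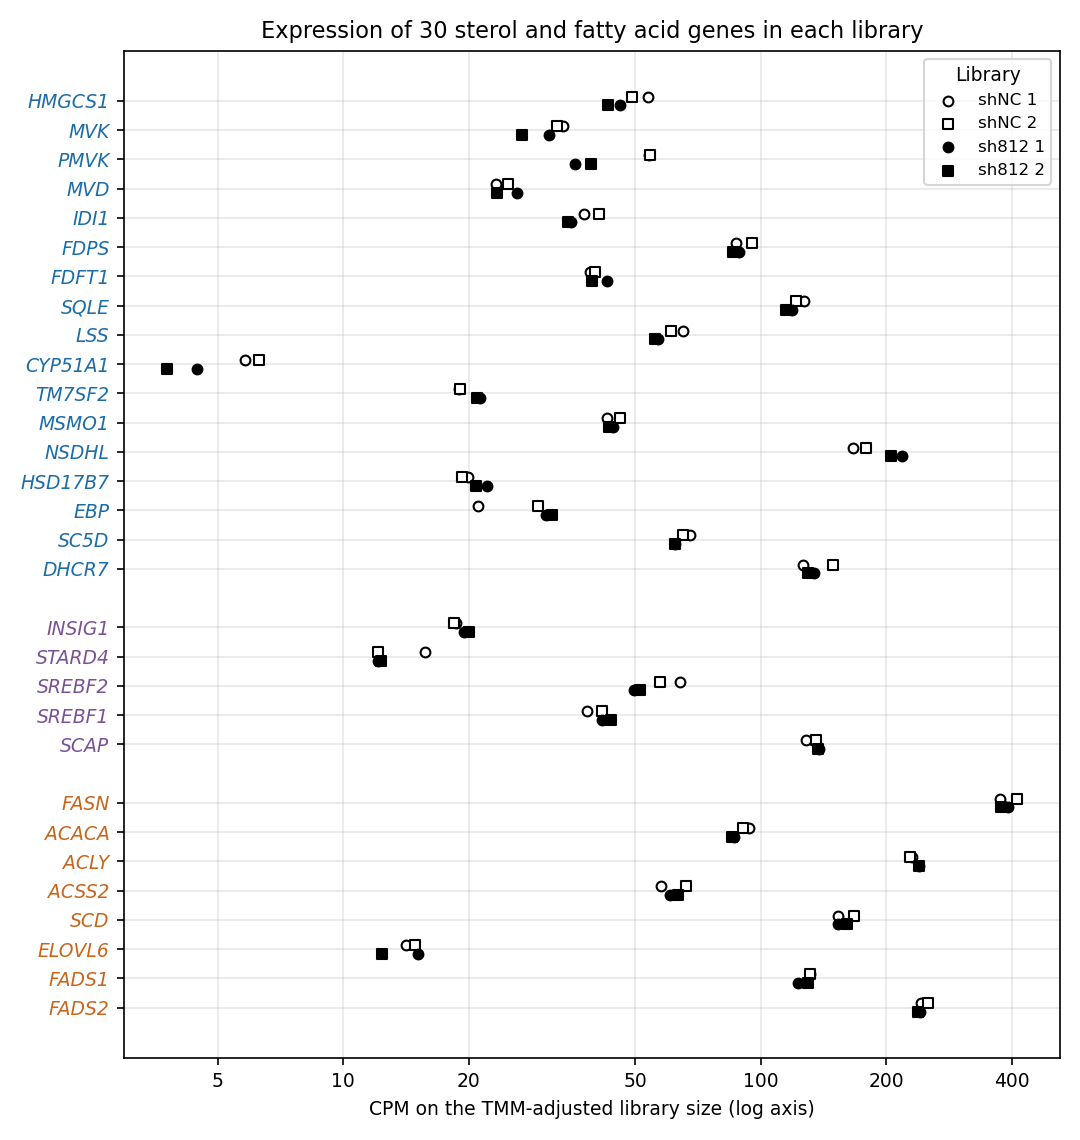
CPM of each gene in each of the 4 libraries, on a log axis, in pathway order, with the names of sterol enzymes in blue, of sterol-sensing genes in purple and of fatty acid enzymes in orange. Open symbols are shNC and filled symbols sh812; circles are replicate 1 and squares replicate 2. PMVK and CYP51A1 show the widest gaps between open and filled symbols, and EBP the widest gap between the 2 open ones.

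Among the 5 sterol-sensing genes, SREBF2 was lower in sh812, and the other 4 did not pass the test. At 5 genes, the list is too short for its share of 20% called to be read against 10.8% of all genes tested. SREBF2, which encodes SREBP-2, stood at 64.1 and 57.3 CPM in shNC and at 49.6 and 51.4 CPM in sh812. Both sh812 libraries were below both shNC libraries, and the shNC libraries lay further apart than the sh812 libraries. The means were 60.7 ± 4.85 and 50.5 ± 1.29 CPM (SD, n = 2), and edgeR fitted -0.27 on the log2 scale (SE 0.078, adjusted p = 0.0274). The call rested on each of 3 libraries. The log2 fold change was -0.18 without shNC replicate 1 (adjusted p = 0.164), -0.24 without sh812 replicate 1 (adjusted p = 0.28) and -0.29 without sh812 replicate 2 (adjusted p = 0.135). With the trend on transcript length removed it was -0.22 (adjusted p = 0.0579). SREBF2 is encoded at chromosome 22, 41833079 to 41907308, plus strand (GENCODE 29, GRCh38), and shares 280 exonic bases with SREBF2-AS1 on the opposite strand, which had 316 counts over the 4 libraries.

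SREBF1, which encodes SREBP-1, was at 38.4 and 41.6 CPM in shNC and at 41.7 and 43.8 CPM in sh812. The groups did not overlap but nearly touched, and the fitted log2 fold change was 0.10 (95% interval -0.075 to 0.27, adjusted p = 0.522). SREBF1 shares 556 exonic bases with RAI1 on the opposite strand. The ratio of SREBF2 to SREBF1 counts, which needs no scaling between libraries, was 1.67 and 1.38 in shNC and 1.19 and 1.17 in sh812. The ratio was thus lower in both sh812 libraries than in either shNC library, with a spread in shNC wider than the gap to sh812. SCAP, the escort protein, was at 128 and 136 CPM in shNC and at 138 in both sh812 libraries, with a log2 fold change of 0.061 (95% interval -0.067 to 0.19). INSIG1, the retention protein and itself a classic SREBP target, was at 18.7 and 18.4 CPM in shNC and at 19.46 and 19.98 CPM in sh812. Its log2 fold change was 0.089 (95% interval -0.13 to 0.31, adjusted p = 0.666). STARD4, a carrier of cholesterol between membranes, was at 15.7 and 12.1 CPM in shNC and at 12.1 and 12.3 CPM in sh812. Here the shNC libraries differed more than the groups did, and the log2 fold change of -0.19 (adjusted p = 0.398) became 0.012 without shNC replicate 1.

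Promoter sequence from RefSeq (GRCh38.p14) was searched because a shared regulator is what defines the set. RefSeq entries covering 250 bases before to 50 bases after a gene start were matched for 27 of the 30 genes, 37 entries in all. FASN, FDFT1 and SQLE had no entry and were not searched. On both strands, 3 motifs were looked for: TCACNCCAC, a form of the sterol regulatory element; TCACGTGA, a palindromic E-box; and ATTGG, the inverted CCAAT box of the SREBP partner NF-Y. None of them contains another. TCACNCCAC was present for SREBF2 alone among the 27 genes, 133 bases before the start. It was present for 1.39% of all 27305 genes with an entry, and in 1.13% of all 35116 entries. TCACGTGA was present for INSIG1 alone, against 1.18% of all genes with an entry and 0.98% of all entries. ATTGG or its reverse complement was present in 25 of the 37 entries (67.6%) and in 34.6% of all entries. By gene that is 13 of 15 sterol enzymes, 3 of 5 sterol-sensing genes and 5 of 7 fatty acid enzymes, against 39.7% of all 27305 genes with an entry. A match is a string of letters and not a measured site. Other spellings and other stretches were not searched, so a gene without a match is not shown to lack the element. NSDHL and SREBF2 both held ATTGG or its complement, and PMVK held none of the 3. The stretches upstream of the annotated transcripts are shown for SREBF2 (chr22:41832855-41833078, plus strand) and NSDHL (chrX:152830813-152830966, plus strand), which were called in opposite directions. Those of MVD (chr16:88663162-88663341, minus strand) and MSMO1 (chr4:165327419-165327622, plus strand) stand for genes that were not called. Capitals mark the motif matches, and each sequence runs 5′ to 3′ along the gene.
SREBF2: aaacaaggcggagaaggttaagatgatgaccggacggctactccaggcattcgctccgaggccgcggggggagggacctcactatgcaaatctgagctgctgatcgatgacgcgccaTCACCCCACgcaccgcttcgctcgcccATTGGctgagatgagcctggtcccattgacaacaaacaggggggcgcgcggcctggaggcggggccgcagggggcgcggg
NSDHL: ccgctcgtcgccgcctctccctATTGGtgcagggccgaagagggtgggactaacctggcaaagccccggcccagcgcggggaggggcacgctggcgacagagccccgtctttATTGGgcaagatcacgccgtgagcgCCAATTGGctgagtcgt
MVD: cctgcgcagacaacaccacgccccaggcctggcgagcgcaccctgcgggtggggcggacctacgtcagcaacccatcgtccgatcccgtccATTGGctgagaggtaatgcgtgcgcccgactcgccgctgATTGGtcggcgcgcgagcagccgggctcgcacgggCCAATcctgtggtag
MSMO1: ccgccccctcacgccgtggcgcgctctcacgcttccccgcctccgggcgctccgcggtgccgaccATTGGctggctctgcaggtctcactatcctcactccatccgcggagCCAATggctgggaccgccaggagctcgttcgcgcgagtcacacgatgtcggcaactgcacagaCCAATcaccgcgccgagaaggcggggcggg

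The sterol enzymes as a group of 17 had 1 gene called higher and 1 called lower (11.8%, near the 10.8% of all genes tested). Their median log2 fold change was -0.068. Fitted values lay above 0 in 6 of these genes and below 0 in 11, beside 8232 above and 8570 below over all genes tested. The summed level of the 17 enzymes was 990 and 1033 CPM in shNC and 1018 and 982 CPM in sh812, so that the groups overlapped. The count of called enzymes depended on single libraries: it was 4 without shNC replicate 1, 5 without shNC replicate 2 and 1 without sh812 replicate 1. It was also 4 with library size alone as the scaling, where 1 enzyme was higher and 3 were lower.

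**Figure D2:**
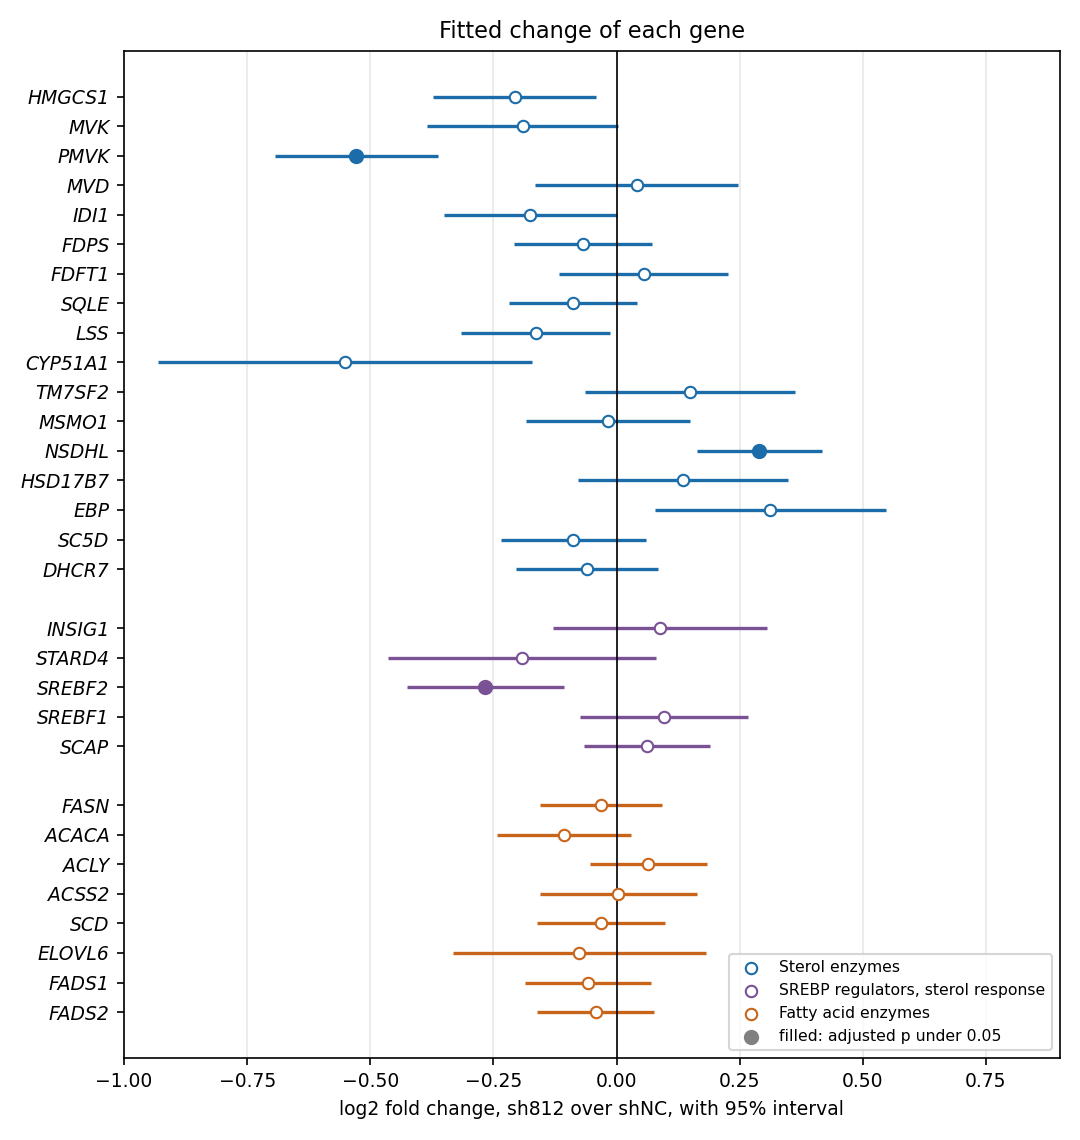
Fitted log2 fold change of each gene, sh812 over shNC, as points with bars for the 95% interval. Filled points have an adjusted p under 0.05 (PMVK, NSDHL and SREBF2), and the 8 fatty acid enzymes lie between -0.11 and 0.064.

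In the mevalonate steps, PMVK fell. It encodes phosphomevalonate kinase, which adds the second phosphate to mevalonate. PMVK stood at 53.9 and 54.4 CPM in shNC and at 35.9 and 39.2 CPM in sh812. The 2 shNC libraries were almost equal and both sh812 libraries lay well below them. The means were 54.1 ± 0.293 and 37.5 ± 2.36 CPM (SD, n = 2), so that PMVK fell by 30.7%, and edgeR fitted -0.53 on the log2 scale (SE 0.080, adjusted p = 0.000101). PMVK kept its direction and an adjusted p under 0.05 in all 12 alternatives, with values from -0.66 with the length trend removed to -0.46 without sh812 replicate 1. PMVK occupies chromosome 1, 154924734 to 154936991, minus strand, and no other GENCODE 29 gene overlaps it. With 1280 exonic bases it was the shortest gene of the set.

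The enzymes on either side of PMVK did not pass the test. MVK, mevalonate kinase, was at 33.6 and 32.5 CPM in shNC and at 31.1 and 26.9 CPM in sh812 (log2 fold change -0.19, adjusted p = 0.211). It shares 306 exonic bases with MMAB on the opposite strand. MVD, the decarboxylase after PMVK, was at 23.3 and 24.9 CPM in shNC and at 26.1 and 23.4 CPM in sh812 (log2 fold change 0.041, 95% interval -0.17 to 0.25). Its groups overlapped. The ratio of PMVK to MVD counts was 2.32 and 2.19 under shNC, against 1.38 and 1.68 under sh812. The ratio of PMVK to MVK counts was 1.605 and 1.671, against 1.15 and 1.46. In both ratios each sh812 library was below each shNC library.

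HMGCS1, a synthase early in the pathway, was at 53.6 and 49.2 CPM in shNC and at 46.0 and 43.1 CPM in sh812. Its groups did not overlap, and its log2 fold change of -0.21 missed the threshold (adjusted p = 0.099). It passed without shNC replicate 2 (-0.26, adjusted p = 0.0169) and with library size alone (-0.25, adjusted p = 0.0497). IDI1, the isomerase of the activated isoprene unit, was at 37.7 and 40.9 CPM against 35.0 and 34.6 CPM (log2 fold change -0.18, adjusted p = 0.205). FDPS, which builds farnesyl diphosphate, was at 87.4 and 95.4 CPM against 88.7 and 85.7 CPM, with overlapping groups (log2 fold change -0.068, 95% interval -0.21 to 0.073). These 6 genes, HMGCS1 to FDPS, summed to 290 and 297 CPM in shNC and to 263 and 253 CPM in sh812. Both sh812 sums were lower, by 12.1% on the mean, and PMVK accounted for the largest single part. That grouping was made after the values were seen and has no test.

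Past farnesyl diphosphate the values went both ways. Squalene synthase FDFT1 had shNC and sh812 means of 39.5 ± 0.638 and 41.1 ± 2.34 CPM (SD, n = 2), with overlapping libraries (log2 fold change 0.055, 95% interval -0.12 to 0.23). SQLE, the squalene epoxidase that is a known control point of the pathway, was at 127 and 122 CPM against 119 and 115 CPM. Its interval ran from -0.22 to 0.042, with a log2 fold change of -0.088 (adjusted p = 0.42). LSS, which closes the sterol rings to lanosterol, was at 65.3 and 61.1 CPM against 56.9 and 56.0 CPM. SQLE and LSS were lower in both sh812 libraries than in both shNC libraries, without passing the test. The log2 fold change of LSS was -0.16 (adjusted p = 0.161), and -0.21 without shNC replicate 2 (adjusted p = 0.0496).

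CYP51A1, the lanosterol 14-alpha demethylase, had the largest fitted difference of the 30 and was not called. It was also the least abundant, with raw counts of 220 and 199 under shNC and of 157 and 135 under sh812. That is 5.80 and 6.29 CPM against 4.47 and 3.77 CPM, with no overlap. The fitted log2 fold change was -0.55 (SE 0.18, 95% interval -0.93 to -0.17, adjusted p = 0.0545 in edgeR). It passed the threshold in 4 of the 8 settings that kept all libraries, such as the fit with the length trend removed (-0.59, adjusted p = 0.0416) and the fit with the replicate number as a block (adjusted p = 0.0474). It also passed without shNC replicate 1 (-0.61, adjusted p = 0.0459). GENCODE 29 places 2 further gene models with 0 counts over CYP51A1 on the same strand, and its named pseudogene copies had at most 12 counts in a library.

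NSDHL, which removes the methyl groups at carbon 4 of the sterol ring together with MSMO1 and HSD17B7, was the called gene that rose. It stood at 167 and 179 CPM in shNC and at 218 and 205 CPM in sh812. Each sh812 library was above each shNC library. The means were 173 ± 8.78 and 211 ± 8.67 CPM (SD, n = 2), a rise of 22.2%, and edgeR fitted 0.29 on the log2 scale (SE 0.062, adjusted p = 0.0032). It was 0.20 with the length trend removed (adjusted p = 0.0241) and lost the call without sh812 replicate 1 (0.25, adjusted p = 0.144). NSDHL occupies chromosome X, 152830967 to 152869729, plus strand, with 1996 exonic bases and no overlapping gene in GENCODE 29. MSMO1, the oxidase that acts just before NSDHL, was at 42.8 and 46.0 CPM in shNC and at 44.4 and 43.3 CPM in sh812 (log2 fold change -0.017, 95% interval -0.18 to 0.15). The ratio of NSDHL to MSMO1 counts was 3.90 in both shNC libraries, and 4.90 and 4.75 under sh812. Against EBP, a later enzyme described below, the ratio of NSDHL counts was 7.93 and 6.13 in shNC and 7.11 and 6.50 in sh812, so the groups overlapped. HSD17B7, the reductase that completes the step, was at 19.9 and 19.2 CPM against 22.1 and 20.8 CPM (log2 fold change 0.13, adjusted p = 0.461). A near-identical pseudogene, HSD17B7P2, had 34 to 75 counts a library, so a small part of the HSD17B7 count is uncertain.

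EBP, the sterol isomerase, had the highest fitted value of the set and the widest gap between control libraries. It was at 21.0 and 29.2 CPM in shNC and at 30.6 and 31.6 CPM in sh812. Both sh812 libraries were above both shNC libraries, but shNC replicate 1 stood well below the other 3 libraries. The log2 fold change was 0.31 (SE 0.11, adjusted p = 0.0786), while shNC replicate 2 exceeded shNC replicate 1 by 0.47 on the log2 scale. Without shNC replicate 2 it was 0.57 (adjusted p = 8.63e-06), and without shNC replicate 1 it was 0.090. TM7SF2, which encodes a sterol reductase that LBR can stand in for, was at 18.96 and 19.07 CPM in shNC and at 21.2 and 21.0 CPM in sh812. The replicates of TM7SF2 were close to each other, and its log2 fold change of 0.15 did not pass (95% interval -0.064 to 0.36, adjusted p = 0.4). SC5D, the lathosterol desaturase, was at 67.7 and 65.1 CPM against 62.5 CPM in both sh812 libraries (log2 fold change -0.088, adjusted p = 0.493). DHCR7, which makes cholesterol from 7-dehydrocholesterol, was at 127 and 149 CPM against 134 and 130 CPM. Its shNC libraries enclosed both sh812 libraries, and its log2 fold change was -0.060 (95% interval -0.20 to 0.084). DHCR7 was -0.17 without shNC replicate 1 (adjusted p = 0.0378) and 0.068 without shNC replicate 2. The 11 genes from FDFT1 to DHCR7 summed to 701 and 736 CPM in shNC and to 756 and 729 CPM in sh812.

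**Figure D3:**
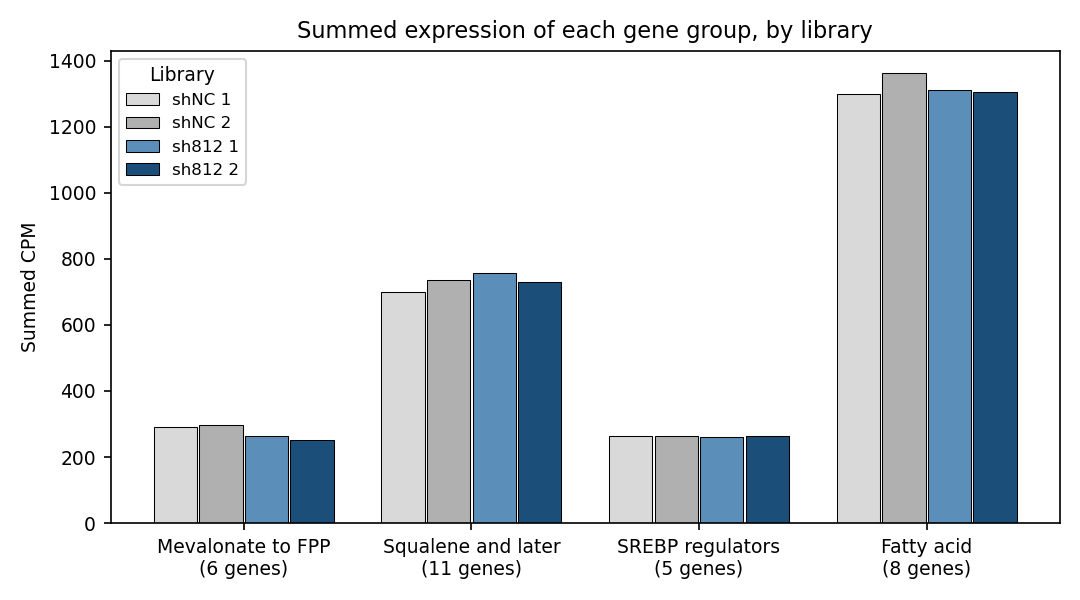
Summed CPM of 4 gene groups in each library, with bars from 0. The 6 genes up to farnesyl diphosphate (FPP) stood at 290 and 297 CPM in shNC and at 263 and 253 CPM in sh812. The split of the sterol enzymes at FPP was made after the values were seen and has no test. All 17 sterol enzymes summed to 990 and 1033 CPM in shNC and to 1018 and 982 CPM in sh812, with overlap. The later sterol genes and the fatty acid enzymes overlapped between groups, and the SREBP regulators stood between 261 and 265 CPM in every library.

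The fatty acid enzymes did not pass the test in any of the 8 genes (0%, beside 10.8% of all genes tested). Of the 8, 0 had an unadjusted p under 0.05 in edgeR, beside 1995 higher and 2166 lower of all 16802 genes tested. At 8 genes, the list is too short for 0 calls to be read against 10.8%. With each of the 12 alternatives, DESeq2 and limma-voom included, the count of called fatty acid enzymes was 0. Mean CPM in sh812 differed from shNC by between a fall of 7.11% (ACACA) and a rise of 4.57% (ACLY). The 95% intervals of all 8 lay between -0.33 and 0.18 on the log2 scale, so that the data set a bound on any change and do not show that there was none. Their median log2 fold change was -0.037. It was 0.018 with the length trend removed and 0.013 without shNC replicate 2, so its sign carried no direction. The summed level was 1298 and 1362 CPM in shNC and 1312 and 1306 CPM in sh812, with overlap.

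FASN, the fatty acid synthase, was the most abundant gene of the 30 by CPM, at 374 and 412 CPM in shNC and at 392 and 377 CPM in sh812. The sh812 values lay between the shNC values, and the log2 fold change was -0.031 (95% interval -0.15 to 0.093). ACLY, which supplies cytosolic acetyl-CoA from citrate, was at 231 and 228 CPM against 240 and 239 CPM (log2 fold change 0.064, 95% interval -0.055 to 0.18). ACSS2, which makes acetyl-CoA from acetate, was at 57.7 and 66.2 CPM against 60.7 and 63.3 CPM. Its fitted log2 fold change was 0.0033, the smallest of the set in size. ACACA, the carboxylase that makes malonyl-CoA, was at 93.9 and 90.9 CPM against 86.3 and 85.4 CPM. Both sh812 libraries were lower, with a log2 fold change of -0.11 (95% interval -0.24 to 0.029, adjusted p = 0.334).

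The elongation and desaturation enzymes were as close. SCD, which puts the first double bond into saturated chains, was at 153 and 167 CPM in shNC and at 153 and 161 CPM in sh812 (log2 fold change -0.031, 95% interval -0.16 to 0.099). ELOVL6, which lengthens palmitate, was the least abundant of the 8, at 14.1 and 14.9 CPM against 15.1 and 12.4 CPM. It had the widest interval, from -0.33 to 0.18. FADS1 and FADS2 encode the delta-5 and delta-6 desaturases of polyunsaturated fatty acids and lie head to head on chromosome 11, where their models share 490 exonic bases on opposite strands. FADS1 was at 132 and 131 CPM against 123 and 130 CPM, and FADS2 at 243 and 251 CPM against 241 and 238 CPM. Mean CPM fell by 3.96% for FADS1 and 2.92% for FADS2, at log2 fold changes of -0.058 and -0.043. Both sh812 libraries were below both shNC libraries, but the groups nearly touched. The nearest shNC and sh812 values were 131.2 and 129.7 CPM for FADS1, and 242.6 and 241.3 CPM for FADS2. The ratio of FADS1 to FADS2 counts was 0.542 and 0.522 in shNC and 0.508 and 0.545 in sh812, and the ratio of SCD to FASN counts was 0.410 and 0.407 against 0.390 and 0.426. In both ratios the groups overlapped.

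Exonic length differed between the arms, and the libraries carried a trend with length. Across 12257 genes, the Spearman correlation of exonic length with the group difference was -0.30, and with the difference between the 2 shNC libraries also -0.30. It was 0.031 with the difference between the 2 sh812 libraries. These describe the libraries, since genes are not independent replicates. ACACA, FADS2, FADS1 and FASN, with 13008, 11026, 10230 and 9364 exonic bases, were the longest of the set. Removing the trend moved them from -0.11, -0.043, -0.058 and -0.031 to -0.029, 0.029, 0.013 and 0.035. The short genes PMVK and NSDHL moved down, to -0.66 and 0.20.

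**Figure D4:**
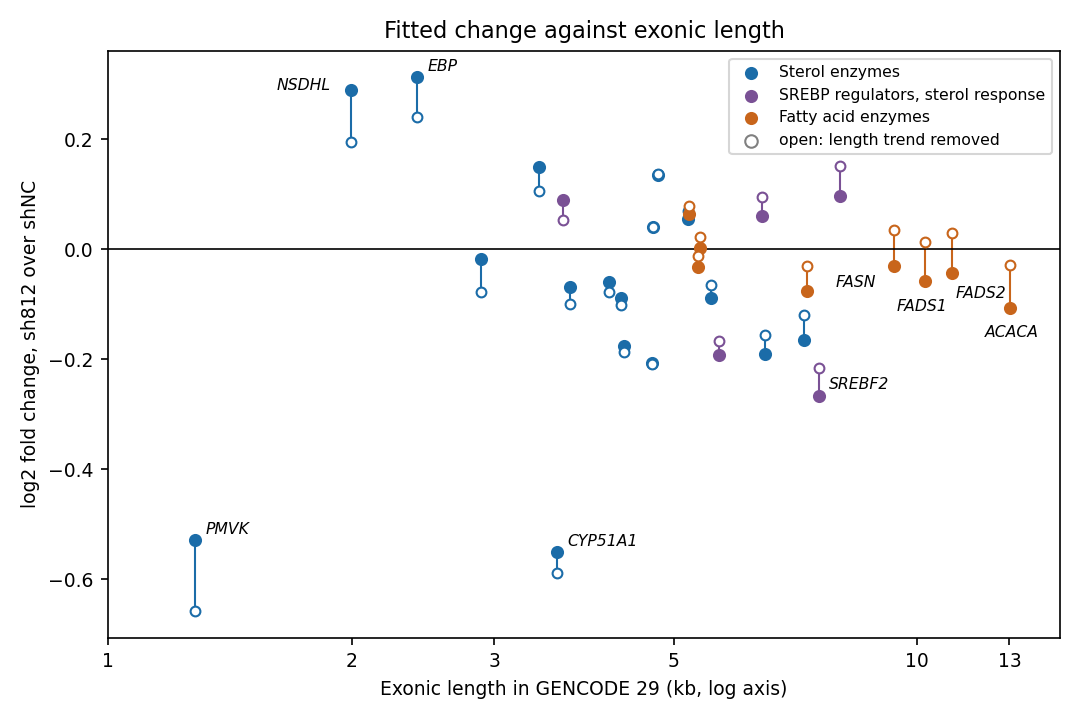
Fitted log2 fold change of each gene against its exonic length on a log axis, before (filled) and after (open) removal of each library's trend with length. PMVK, at 1.28 kb, moved from -0.53 to -0.66, and the 4 longest genes, all fatty acid enzymes, moved toward or past 0.

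Levels per unit of length, as TPM (counts scaled by GENCODE 29 exonic length, then to library size), gave another order of abundance. NSDHL led at 343 ± 8.96 TPM in shNC (SD, n = 2). ACLY, PMVK and FASN followed at 174 ± 6.02, 168 ± 3.22 and 166 ± 7.15 TPM. Their order was not fixed, as FASN was the lowest of them in shNC replicate 1 and the highest in shNC replicate 2. DHCR7, SCD and SQLE came next, at 131 ± 12.0, 118 ± 4.48 and 114 ± 6.40 TPM. DHCR7 was above SCD and SQLE in both shNC libraries, and SCD and SQLE changed order between them. SREBF2 stood at 31.8 ± 3.32 TPM and SREBF1 at 19.7 ± 0.638 TPM. STARD4, ELOVL6 and CYP51A1 were lowest, at 9.72 ± 2.01, 7.87 ± 0.0865 and 6.68 ± 0.220 TPM.

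The rest of lipid metabolism was read from 7 further lists. Of the other sterol synthesis genes 2 of 6 were called higher and 1 lower. ERG28, a scaffold of the C4 demethylation enzymes, rose from 51.6 and 53.5 CPM in shNC to 62.7 and 63.5 CPM in sh812 (log2 fold change 0.26, adjusted p = 0.0214). LBR, a sterol reductase that is also a nuclear lamin receptor, rose from 104 and 96.9 to 120 and 114 CPM (log2 fold change 0.23, adjusted p = 0.0267). In ERG28 and LBR the groups did not overlap, and each call was lost without sh812 replicate 1 (adjusted p = 0.176 and 0.363) and without sh812 replicate 2 (adjusted p = 0.207 and 0.132). With library size alone both calls were lost as well (0.22 and 0.18, adjusted p = 0.0567 and 0.0819), and that of ERG28 also with the length trend removed (0.19, adjusted p = 0.0718). At 6 tested genes, the list is too short for its share of 50% to be read against 10.8%.

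Of 13 other genes of SREBP processing, 1 was called (7.69%, beside 10.8% of all genes tested). RNF145, a ubiquitin ligase of the sterol-sensing membrane complex, fell from 111 and 118 CPM to 88.3 and 93.6 CPM (log2 fold change -0.33, adjusted p = 0.00176), and missed the threshold without sh812 replicate 1 (-0.29, adjusted p = 0.0953). INSIG2, MBTPS1 and MBTPS2, which encode the second INSIG and the 2 proteases that release SREBPs, were not called, at log2 fold changes of 0.21, -0.0012 and -0.10. Among 20 genes of cholesterol uptake, transport and efflux, 1 was higher and 3 were lower (20% called, beside 10.8% of all genes tested). NPC1, which moves cholesterol out of lysosomes, fell from 222 and 226 CPM to 162 and 169 CPM. Its value of -0.44 on the log2 scale (SE 0.059, adjusted p = 2.16e-05) kept the call in all 12 alternatives. ABCG1, a sterol efflux pump at 2.48 and 2.15 CPM in shNC, stood at 0.912 and 1.34 CPM in sh812 (log2 fold change -1.04, adjusted p = 0.0451). It lost the call without shNC replicate 1 (-0.93, adjusted p = 0.157) and without either sh812 library (-0.79 and -1.34, adjusted p = 0.334 and 0.0515), and with the length trend removed (-1.01, adjusted p = 0.058). TMEM97, a sterol-regulated membrane protein, rose from 41.4 and 42.1 to 53.5 and 46.3 CPM (log2 fold change 0.26, adjusted p = 0.0469). Its call was lost without shNC replicate 1 (0.25, adjusted p = 0.0524) and without sh812 replicate 1 or 2 (0.15 and 0.36, adjusted p = 0.601 and 0.0527). With all libraries kept it was lost with library size alone (adjusted p = 0.108), in DESeq2 (adjusted p = 0.0677) and with the length trend removed (0.20, adjusted p = 0.113).

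**Figure D5:**
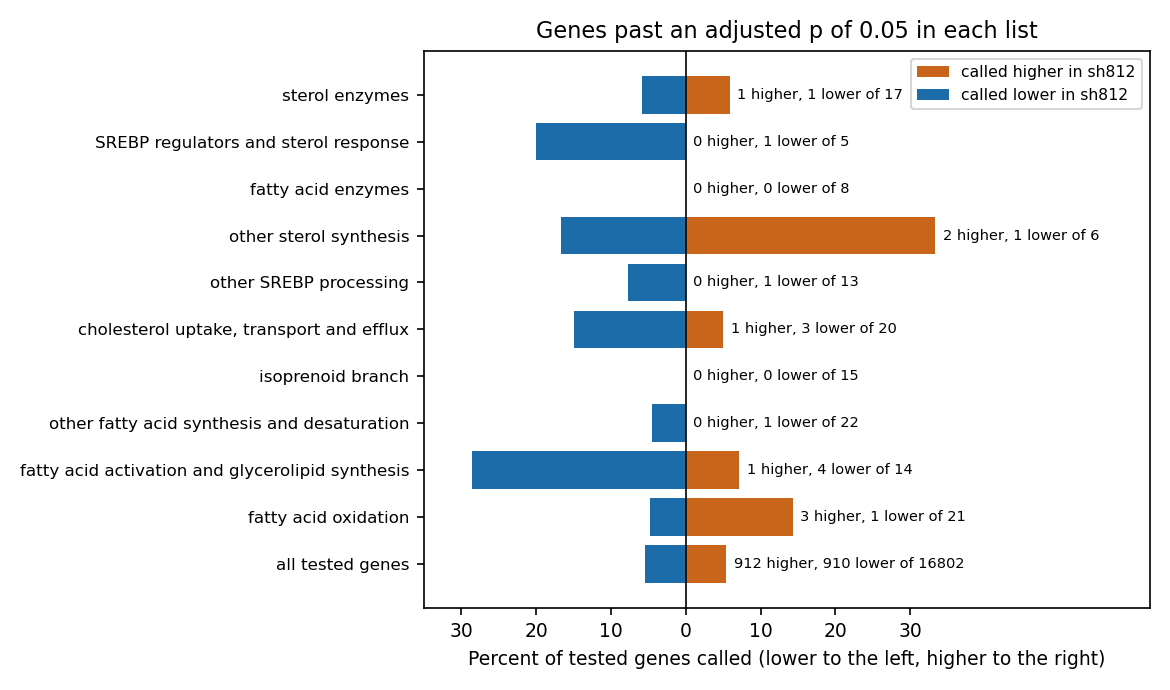
Percent of tested genes called at an adjusted p under 0.05 in each list, lower to the left and higher to the right, with the counts written beside the bars. The fatty acid enzymes and the isoprenoid branch have 0 calls, and all tested genes have 912 higher and 910 lower.

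The isoprenoid branch, which makes ubiquinone, dolichol and protein prenyl groups, had 0 of 15 genes called in edgeR, with 1 lower and 0 higher at an unadjusted p under 0.05. Of 22 other genes of fatty acid synthesis and desaturation, 1 was called (4.55%). Over all genes tested the share called was 10.8%. MID1IP1, an activator of acetyl-CoA carboxylase, fell from 27.3 and 28.9 CPM to 16.7 and 17.2 CPM (log2 fold change -0.73, SE 0.10, adjusted p = 3.19e-05), and stayed called in all 12 alternatives. The enzyme it acts on, ACACA, did not pass the test, as given above. In fatty acid activation and glycerolipid synthesis 4 of 14 genes were lower and 1 was higher (35.7% called, beside 10.8% of all genes tested). At 14 genes this list, too, is short. LPIN1, a phosphatidate phosphatase and SREBP target, fell from 36.1 and 30.7 CPM to 24.6 and 23.9 CPM (log2 fold change -0.46, adjusted p = 0.0029), and stayed called in all 12 alternatives. ACSL4, which activates polyunsaturated fatty acids, fell from 90.6 and 85.8 to 75.6 and 68.0 CPM (log2 fold change -0.30, adjusted p = 0.00835), and lost the call without sh812 replicate 2 (-0.22, adjusted p = 0.256).

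The other 3 calls of that list each failed without at least 1 library and in at least 1 setting that kept all libraries. PCYT1A, the regulated enzyme of phosphatidylcholine synthesis, had a log2 fold change of -0.22 (adjusted p = 0.0432, and 0.0513, 0.345 and 0.259 without shNC replicate 1, sh812 replicate 1 and sh812 replicate 2). LPIN2, a relative of LPIN1, had one of -0.25 (adjusted p = 0.0447, and 0.0798 and 0.615 without shNC replicate 1 and sh812 replicate 1). AGPAT3, an acyltransferase, had one of 0.20 (adjusted p = 0.0348, and 0.195 and 0.421 without sh812 replicate 1 and sh812 replicate 2). With the length trend removed, PCYT1A was at -0.16 (adjusted p = 0.115) and LPIN2 at -0.21 (adjusted p = 0.0799). In DESeq2 their adjusted p was 0.0573 and 0.0775. PCYT1A also missed the threshold without a filter (adjusted p = 0.0579), LPIN2 with RLE factors (adjusted p = 0.0514) and AGPAT3 with library size alone (0.15, adjusted p = 0.0962).

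Fatty acid oxidation, the reverse route, had 3 of 21 genes higher and 1 lower (19% called, beside 10.8% of all genes tested). DECR1, which handles unsaturated chains, rose from 130 and 140 CPM to 159 and 165 CPM (log2 fold change 0.27, adjusted p = 0.00719). ECHS1, the short-chain hydratase, rose from 147 and 175 to 201 and 191 CPM (log2 fold change 0.28, adjusted p = 0.00922). ECI1, an isomerase, rose from 33.4 and 36.7 to 43.3 and 44.3 CPM (log2 fold change 0.32, adjusted p = 0.0136). ACAA2, a thiolase, fell from 21.9 and 22.2 to 15.7 and 17.5 CPM (log2 fold change -0.41, adjusted p = 0.015). ECHS1 lost the call with the length trend removed (0.17, adjusted p = 0.0643). Each of the 4 missed the threshold without sh812 replicate 1 (adjusted p = 0.0669, 0.146, 0.099 and 0.258 in that order). DECR1 and ECI1 missed it without sh812 replicate 2 (adjusted p = 0.161 and 0.152), and ECI1 without shNC replicate 1 (adjusted p = 0.0577). CPT1A, the entry step of oxidation, was not called, at 83.0 and 69.4 CPM in shNC and 65.7 and 68.7 CPM in sh812 (log2 fold change -0.18, adjusted p = 0.142).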

How the data were processed

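Poly(A) RNA of 4 PC3 libraries was analysed from the authors' deposited table of raw read counts per gene, whole numbers with a different total in each library. Per the submitters' processing notes, fastp, STAR 2.7.1a, featureCounts and DESeq2 were named, with hg38 as the build. The annotation release, the strand setting of the counting and the unit counted, single reads or fragments, are not given in the sources used here, so genes on opposite strands can share reads.

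The whole table was fitted with edgeR 4.0.16 in R 4.3.3 (filterByExpr with a minimum count of 10 and total of 15, TMM, glmQLFit and glmQLFTest, no covariate, 2 residual degrees of freedom). P-values are two-sided and adjusted by Benjamini-Hochberg over 16802 genes, and a call is an adjusted p under 0.05. The standard error came from the F statistic. Gene variances were moderated across all genes tested, so p-values and 95% intervals used more degrees of freedom than the 2 residual ones. CPM used the TMM-adjusted size. Lengths and positions came from GENCODE 29, which had a model for 16635 of the tested genes.

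The alternatives were RLE factors, library size alone, no filter, a floor of 1 on mean CPM, a block for the replicate number, DESeq2 1.42.0, limma-voom (limma 3.58.1), removal of the length trend (lowess span 0.3) and each library left out. Named genes were the 30, METTL3 and the called genes of 7 lipid lists, at most 4 per list and direction. Some genes picked by that rule are not reported here. The members and lists were chosen with earlier results of these data known. Replicate counts differed by more than sampling noise (chi-square per gene of 8.43 for shNC, 4.51 for sh812), so each library was counted as 1 replicate. The fitting script was tested on simulated data.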

Additional observations from a re-analysis of the deposited data

How the results depend on the processing

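All alternatives were planned. PMVK and METTL3 kept direction and call in each of the 12. Over the 8 settings that kept all libraries, 225 of 240 values of the 30 genes kept direction and side of the threshold, and 1 call was lost, that of SREBF2 with the length trend removed. The sterol enzyme count of 2 became 4 with library size alone, without a filter and with the replicate block, where CYP51A1 (-0.55) and EBP (0.32) passed. The count for the sterol-sensing genes became 0 with the length trend removed. With library size alone the sterol median was -0.11 and the fatty acid median -0.081, and the median of all genes was -0.050. The fatty acid median was 0.018 with the length trend removed, where FASN (0.035), FADS1 (0.013) and FADS2 (0.029) changed sign. None of these had been called. MVD (-0.0041) and ACSS2 (-0.041) changed sign with library size alone, and ACSS2 (-0.0020) with a floor of 1 on mean CPM. For all of these, the cause was not tested.

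Leaving out a library leaves a lone sample that is assumed to vary like the other group. The count over all genes then ran from 587 without sh812 replicate 1 to 3252 without shNC replicate 2, with 682 without sh812 replicate 2. Counts ran from 1 to 5 for sterol enzymes and from 0 to 1 for sterol-sensing genes, and medians from -0.087 to 0.0014 (sterol) and -0.089 to 0.013 (fatty acid). Uncalled genes that changed sign were MVD (-0.038 to 0.12), FDPS (-0.13 to 0.0014), FDFT1 (-0.0030 to 0.11), MSMO1 (-0.069 to 0.041), DHCR7 (-0.17 to 0.068), STARD4 (-0.36 to 0.012), FASN (-0.099 to 0.045), ACSS2 (-0.094 to 0.11), SCD (-0.094 to 0.039) and ELOVL6 (-0.22 to 0.058).

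Of the 18 other selected genes, 9 lost the call in at least 1 setting and 15 without at least 1 library. DESeq2 gave no adjusted p for ABCG1. Library size alone gave 561 genes higher and 1328 lower over the table, against 912 and 910. The labels number the replicates 1 and 2 and tie those numbers to no shared culture or day. Deviations of same-numbered libraries had a correlation of 0.0164 across genes, so the block (2001 genes called, 4 sterol enzymes) was kept as an alternative only. With 2 libraries a group, real changes can be missed, and an uncalled gene is not shown to be unchanged.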
